A study of Mus musculus with 48 samples.

Results

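The 23 genes described here are the organic ion transporter genes of the Slc22a and Slco families that were measured in mouse liver during and after administration of lipopolysaccharide (LPS), an outer membrane component of Gram-negative bacteria that immune cells sense through Toll-like receptor signalling. They are the rows of a table of 29331 genes whose symbols are Slc22a or Slco with a number, 1 Slc22a gene left out by the rule, and that reached 5 or more counts in at least 3 of 48 libraries. Of 34 rows with such symbols, 23 met that minimum, 15 of them Slc22a and 8 Slco genes. The mice were male and wild type, and their liver poly(A) RNA was read in 16 groups of 3 libraries. LPS mice received it continuously for 7 days and the negative control (NC) mice did not. Both arms were sampled on day 7 every 4 h from ZT1 to ZT21, at 6 times, where ZT (Zeitgeber time) counts hours from lights on. Days 3 and 5 of LPS, and days 9 and 11, when LPS had ended, were each sampled at ZT21 in LPS mice alone. The NC livers of day 7 at ZT21 were the control for all of these days. Neither the LPS dose and route nor the strain and age of the mice are stated in the sources used.

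Slc22a proteins carry organic cations, carnitine and related zwitterions, or organic anions across the plasma membrane, and Slco proteins (organic anion transporting polypeptides) carry bile acids, conjugated steroids, thyroid hormones, prostaglandins and many drugs. In liver, several of them lie in the sinusoidal membrane of hepatocytes and take compounds up from blood, before metabolism and export into bile by other transporters. Inflammation is known to lower the expression of many hepatic uptake transporters, and in mice several of these genes are expressed at different levels in males and females.

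Libraries held between 28.2 and 45.3 M counts, with a median of 32.9 M. Whether the 3 biological replicates of a group were different animals is not stated, so the tests rest on a spread between libraries that may be technical. No 2 replicates were as alike as counting error alone would make them, the lowest median chi-square per gene being 1.43, against 0.455 for counting error. The 15 hepatocyte markers summed to between 102610 and 133101 CPM, which are counts per unit of TMM-scaled library size, in the LPS livers of day 7 and to between 97460 and 135524 CPM in NC livers. The 8 kidney tubule markers present in the table summed to at most 2.196 CPM in LPS livers and 2.54 CPM in NC livers, and Umod, Slc34a1 and Cubn had a median of 0. In a principal component analysis of day 7, 4 LPS libraries stood apart on the first axis (19.4% of the variance), with scores from 57.1 to 67.0 against at most 22.7 elsewhere. They were ZT1 replicate 2, ZT13 replicate 2 and ZT21 replicates 1 and 3, and most results that rest on them are given with and without them. Counts of called markers of other liver cells and of called acute-phase genes are given with them only. The core clock genes of the LPS livers of day 3 were read at 6.1 to 6.9 h and those of day 5 at 1.1 to 4.5 h, although both were collected at ZT21. In bulk liver RNA, fewer cells of a type and less RNA per cell cannot be told apart.

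Transcript levels differed widely among the genes. Divided by exon length, 9 of the 23 genes had a mean of at least 10 CPM per kilobase in NC livers, 3 more had at least 1, and 11 had less than 1. Slco1b2 (OATP1B2, a hepatocyte uptake transporter of bile acids and bilirubin conjugates) had 123 ± 26.9 CPM per kilobase in LPS livers and 132 ± 28.6 CPM per kilobase in NC livers (SD, n = 18 each). Slco1a1 (OATP1A1, an uptake transporter of conjugated steroids and bile acids that is higher in male than in female mice) followed at 57.2 ± 25.1 CPM per kilobase in LPS livers and 78.0 ± 7.92 CPM per kilobase in NC livers. Slc22a30, a member of a rodent cluster of genes related to the organic anion transporters, had 50.3 ± 16.8 CPM per kilobase in LPS livers and 70.7 ± 9.76 CPM per kilobase in NC livers. Over the NC livers the range of Slco1b2 overlapped that of Slco1a1, that of Slco1a1 overlapped that of Slc22a30, and that of Slc22a30 overlapped that of the imprinted gene Slc22a18, the next in order. The range of Slc22a18 did not overlap that of Slco2b1, which followed.

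Below them came Slco2b1 (a transporter of sulphated steroids and statins), Slc22a7 (OAT2, an organic anion transporter), Slc22a28 and the orphan transporter Slc22a23, between 12.1 and 24.7 CPM per kilobase on average in NC livers. Slco2a1 (the prostaglandin transporter), Slc22a5 (OCTN2, the carnitine transporter) and Slco1a4 (OATP1A4, a transporter of bile acids and cardiac glycosides) lay between 4.41 and 7.17 CPM per kilobase. The 11 genes under 1 CPM per kilobase included Slc22a4 (OCTN1, the ergothioneine transporter), Slc22a3 (OCT3, a monoamine transporter), Slc22a17 (the lipocalin 2 receptor) and Slc22a21 (a carnitine transporter), at 0.864, 0.619, 0.462 and 0.244 CPM per kilobase. The lowest were Slco4a1, Slc22a13 and Slco1c1, the last a thyroxine transporter known from brain capillaries, at 0.0608, 0.0284 and 0.0214 CPM per kilobase. Slc22a13 reached 5 counts in 8 libraries and Slco1c1 in 19, the fewest of the 23 genes, where the minimum was 3. Below that minimum, Slc22a2, Slc22a8, Slc22a12 and Slco5a1 reached 5 counts in 1 library each. Slc22a14, Slc22a19, Slc22a22, Slc22a6, Slco1a5, Slco1a6 and Slco4c1 did so in no library at this depth. Slc22a2, Slc22a6, Slc22a8 and Slc22a12 are known for their expression in kidney tubules.

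**Figure D1:**
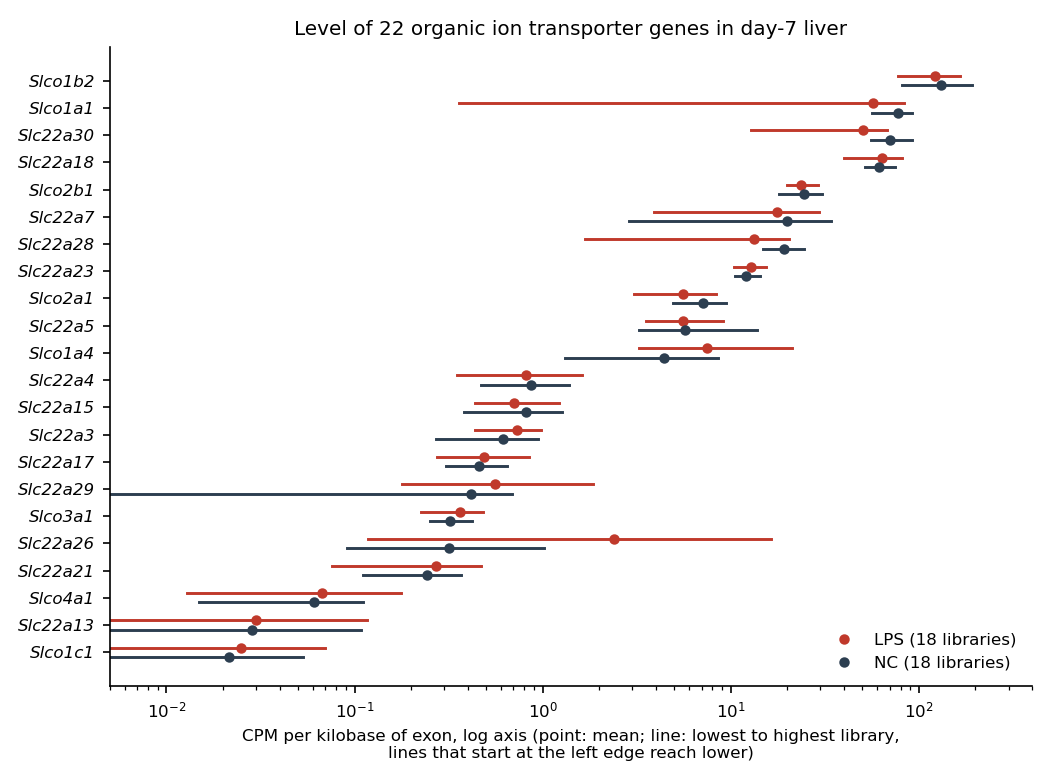
Level of 22 of the 23 genes in day-7 liver, in CPM per kilobase of exon on a log axis, with LPS above NC for each gene. Points are means of 18 libraries and lines run from the lowest to the highest library. Slco1b2 stands at the top in both arms, and Slco1a1, Slc22a30, Slc22a28 and Slc22a26 have a much wider range in LPS than in NC livers.

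The genes Slc22a26, Slc22a28, Slc22a29 and Slc22a30 lie in 1 cluster on chromosome 19, all on the minus strand. In GRCm38, Slc22a28 spans chr19:8062209-8131982 and Slc22a30 spans chr19:8335371-8405111. Over 244 aligned bases before their starts these genes differed at 6, an identity of 97.5%, whereas Slc22a26 (chr19:7781041-7802667) was 62.8% identical to Slc22a28 and 63.6% to Slc22a30. Slc22a29 was 75.8% identical to Slc22a28 and 77.8% to Slc22a30. Slc22a28 and Slc22a30 were low in the 4 LPS libraries that stood apart, and Slc22a26 was high in 3 of these, as described below. Slc22a29 was not low in these libraries, with 0.408 to 4.22 CPM, against 0 to 1.57 CPM in NC livers. The part of promoter sequence in these levels was not tested. The 250 bases before the RefSeq starts of Slc22a28, Slc22a30 and Slc22a26 are shown. They are from RefSeq, build GRCm38.p6, minus strand, at chr19:8131983-8132232, chr19:8405106-8405355 and chr19:7802668-7802917, and the first 6 bases upstream of the RefSeq start of Slc22a30 lie within the span given above, which comes from GENCODE M21. Capitals mark the bases at which Slc22a28 and Slc22a30 differ.
Slc22a28: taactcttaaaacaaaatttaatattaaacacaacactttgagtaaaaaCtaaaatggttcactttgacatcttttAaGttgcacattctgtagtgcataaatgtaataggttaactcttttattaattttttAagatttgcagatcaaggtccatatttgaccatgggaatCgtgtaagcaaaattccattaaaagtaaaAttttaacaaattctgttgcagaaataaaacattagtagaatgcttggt
Slc22a30: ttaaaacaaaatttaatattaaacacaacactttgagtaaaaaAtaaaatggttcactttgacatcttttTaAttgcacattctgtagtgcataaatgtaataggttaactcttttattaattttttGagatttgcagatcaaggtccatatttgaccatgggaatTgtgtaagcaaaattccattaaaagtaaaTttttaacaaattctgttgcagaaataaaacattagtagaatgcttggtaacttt
Slc22a26: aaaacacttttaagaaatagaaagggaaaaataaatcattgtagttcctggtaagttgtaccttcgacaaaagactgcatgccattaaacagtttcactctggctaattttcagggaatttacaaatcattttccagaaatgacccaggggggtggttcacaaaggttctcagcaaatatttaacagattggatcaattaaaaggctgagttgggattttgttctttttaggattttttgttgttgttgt
The transcripts of Slc22a28 and Slc22a30 also share sequence. Of all 150-base windows, 28.5% of those of Slc22a28 and 15.7% of those of Slc22a30 occur in both, so part of their counts could be split between them by the counting method, which the sources used do not state. Slc22a26 shared no such window with another gene.

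Averaged over the 6 times of day, 4 of the 21 transporter genes tested differed between LPS and NC livers on day 7, 2 in each direction. Slc22a26 and Slco1a4 were higher with LPS, and Slc22a30 and Slco2a1 were lower. Over all genes tested, 9.34% passed the same test (edgeR's quasi-likelihood test, Benjamini-Hochberg adjusted p below 0.05), 5.53% higher and 3.81% lower. The median log2 change of the 21 genes was 0.04, and that of all genes was 0.01. With the 4 libraries that stood apart omitted, 2 transporter genes passed, Slc22a28 and Slc22a30, both lower with LPS, against 2.99% of all genes.

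**Figure D2:**
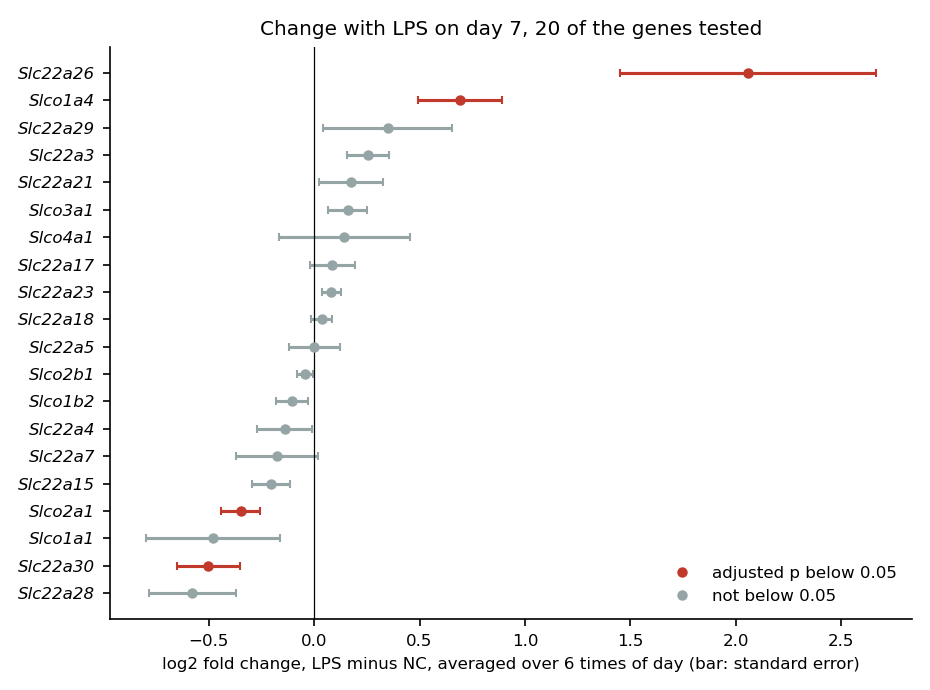
Log2 fold change of LPS over NC livers on day 7, averaged over 6 times of day, for 20 of the 21 transporter genes tested, with the standard error. Red points passed an adjusted p of 0.05, and most of the grey ones lie within 0.5 of no change.

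Slc22a30 was below the NC mean of the same time in 17 of 18 LPS libraries. At ZT1 Slc22a30 had 208, 43.3 and 187 CPM in LPS livers and 309, 256 and 285 CPM in NC livers, and at ZT5 221, 189 and 211 CPM in LPS livers and 231, 253 and 235 CPM in NC livers. At ZT9 Slc22a30 had 169, 197 and 139 CPM in LPS livers and 198, 187 and 193 CPM in NC livers, and at ZT13 172, 73.0 and 208 CPM in LPS livers and 269, 200.4 and 233 CPM in NC livers. At ZT17 Slc22a30 had 194, 204 and 222 CPM in LPS livers and 247, 262 and 243 CPM in NC livers, and at ZT21 88.4, 228 and 96.9 CPM in LPS livers and 254, 215 and 218 CPM in NC livers. All LPS values lay below all NC values at ZT1, ZT5 and ZT17, the groups overlapped at the other times, and the 4 lowest values of the day-7 series belonged to the libraries that stood apart. The mean was 169 ± 56.7 CPM in LPS livers and 238 ± 32.9 CPM in NC livers (SD, n = 18 each). The log2 change was -0.50 ± 0.15 (SE), with an adjusted p of 0.0347. Without the 4 libraries the change was -0.25, with an adjusted p of 0.00793, and the remaining 14 LPS libraries ranged from 139 to 228 CPM, against 187 to 309 CPM in NC livers. With 1 library left out at a time the change lay between -0.59 and -0.43, and Slc22a30 passed in 27 of 36 fits, the exceptions being those without NC ZT1 replicate 1, NC ZT5 replicate 2, LPS ZT5 replicate 2, LPS ZT9 replicate 3, NC ZT13 replicate 1, LPS ZT13 replicate 2, LPS ZT17 replicate 1, LPS ZT21 replicate 1 or LPS ZT21 replicate 3.

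Slc22a28 was likewise below the NC mean in 17 of 18 LPS libraries. It had a lowest, median and highest value of 3.38, 31.0 and 40.8 CPM in LPS livers, against 29.7, 38.3 and 49.3 CPM in NC livers. The libraries that stood apart held 3.38, 6.95, 9.68 and 10.7 CPM, all below the lowest NC library. Its log2 change of -0.58 ± 0.20 missed the threshold in edgeR's quasi-likelihood test, with an adjusted p of 0.0727. DESeq2 called Slc22a28 in this comparison, against 12.4% of all genes. Without those libraries the change was -0.27, with an adjusted p of 0.0249, and the remaining LPS libraries ranged from 22.6 to 40.8 CPM.

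Slco1a1, which was high in nearly all livers, was very low in a few LPS libraries. At ZT1 Slco1a1 had 344, 1.90 and 412 CPM in LPS livers and 404, 382 and 445 CPM in NC livers, and at ZT5 354, 339 and 356 CPM in LPS livers and 372, 429 and 396 CPM in NC livers. At ZT9 Slco1a1 had 376, 309 and 303 CPM in LPS livers and 299, 372 and 428 CPM in NC livers, and at ZT13 408, 63.1 and 385 CPM in LPS livers and 424, 391 and 459 CPM in NC livers. At ZT17 Slco1a1 had 369.9, 361 and 439.6 CPM in LPS livers and 394, 435 and 486 CPM in NC livers, and at ZT21 102, 383 and 123 CPM in LPS livers and 416, 454 and 417 CPM in NC livers. All LPS values lay below all NC values at ZT5 and ZT21. The LPS library of ZT1 replicate 2 held 1.90 CPM, and the other 3 libraries that stood apart held between 63.1 and 123 CPM, whereas the lowest NC library held 299 CPM. The remaining 14 LPS libraries ranged from 303 to 440 CPM and overlapped the NC range of 299 to 487 CPM. The log2 change averaged over time was -0.48 ± 0.32, with an adjusted p of 0.35, and it was -0.15 without the 4 libraries, with an adjusted p of 0.117. Neither passed the threshold.

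Slc22a26, a further member of the chromosome 19 cluster, was high in 3 LPS libraries. At ZT1 Slc22a26 had 0.802, 37.5 and 0.679 CPM in LPS livers and 0.324, 0.677 and 1.50 CPM in NC livers, and at ZT5 1.25, 2.23 and 2.30 CPM in LPS livers and 0.349, 0.646 and 3.01 CPM in NC livers. At ZT9 Slc22a26 had 0.908, 1.53 and 0.651 CPM in LPS livers and 0.613, 1.94 and 0.549 CPM in NC livers, and at ZT13 0.919, 48.5 and 1.16 CPM in LPS livers and 1.29, 0.612 and 1.33 CPM in NC livers. At ZT17 Slc22a26 had 0.999, 0.346 and 0.496 CPM in LPS livers and 0.578, 0.308 and 0.268 CPM in NC livers, and at ZT21 3.19, 0.383 and 23.8 CPM in LPS livers and 0.346, 0.592 and 1.94 CPM in NC livers. The libraries of ZT1 replicate 2, ZT13 replicate 2 and ZT21 replicate 3 held 37.5, 48.5 and 23.8 CPM, and ZT21 replicate 1 held 3.19 CPM, above the highest NC library at 3.01 CPM. The other 14 LPS libraries ranged from 0.346 to 2.30 CPM. The log2 change was 2.06 ± 0.61, with an adjusted p of 0.0348 and 10 of 18 LPS libraries above the NC mean of their time. Leaving out each library in turn gave a change between 1.37 and 2.29, and Slc22a26 passed in 22 of 36 fits, the exceptions being those without NC ZT1 replicate 1, LPS ZT1 replicate 2, NC ZT5 replicate 1, NC ZT5 replicate 2, LPS ZT5 replicate 2, NC ZT9 replicate 1, NC ZT9 replicate 3, LPS ZT9 replicate 2, LPS ZT13 replicate 2, NC ZT17 replicate 2, NC ZT17 replicate 3, LPS ZT17 replicate 1, NC ZT21 replicate 2 or LPS ZT21 replicate 3. Without all 4 libraries it was -0.07, with an adjusted p of 0.966.

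Slco1a4 was above the NC mean of the same time in 16 of 18 LPS libraries. At ZT1 Slco1a4 had 22.4, 20.8 and 27.0 CPM in LPS livers and 8.46, 17.1 and 26.2 CPM in NC livers, and at ZT5 26.3, 51.1 and 34.6 CPM in LPS livers and 23.7, 20.1 and 26.3 CPM in NC livers. At ZT9 Slco1a4 had 43.4, 27.2 and 48.9 CPM in LPS livers and 32.7, 34.9 and 43.8 CPM in NC livers, and at ZT13 52.5, 135 and 40.0 CPM in LPS livers and 30.8, 15.8 and 38.0 CPM in NC livers. At ZT17 Slco1a4 had 45.9, 28.5 and 38.5 CPM in LPS livers and 18.4, 19.1 and 39.3 CPM in NC livers, and at ZT21 49.9, 35.1 and 133 CPM in LPS livers and 21.1, 54.8 and 39.0 CPM in NC livers. The highest values, 135 and 133 CPM, were in LPS ZT13 replicate 2 and LPS ZT21 replicate 3, and the groups overlapped at 5 of the 6 times, all but ZT13. The mean was 47.8 ± 33.0 CPM in LPS livers and 28.3 ± 11.7 CPM in NC livers (SD, n = 18 each). The log2 change was 0.69 ± 0.20, with an adjusted p of 0.0327. Over fits that each left out 1 library the change was between 0.56 and 0.76, and Slco1a4 passed in 29 of 36 fits, the exceptions being those without NC ZT5 replicate 2, LPS ZT5 replicate 2, LPS ZT9 replicate 3, LPS ZT13 replicate 2, NC ZT17 replicate 2, LPS ZT17 replicate 1 or LPS ZT21 replicate 3. Without all 4 libraries it was 0.41, with an adjusted p of 0.242.

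Slco2a1, whose product takes up prostaglandins, was below the NC mean of the same time in 15 of 18 LPS libraries. At ZT1 Slco2a1 had 109, 55.3 and 113 CPM in LPS livers and 123, 112 and 128 CPM in NC livers, and at ZT5 100.5, 91.5 and 91.0 CPM in LPS livers and 104, 116 and 110.1 CPM in NC livers. At ZT9 Slco2a1 had 74.2, 80.1 and 57.2 CPM in LPS livers and 109, 118 and 79.1 CPM in NC livers, and at ZT13 83.6, 48.4 and 70.6 CPM in LPS livers and 88.6, 69.7 and 81.4 CPM in NC livers. At ZT17 Slco2a1 had 75.4, 67.7 and 71.7 CPM in LPS livers and 66.6, 69.4 and 67.9 CPM in NC livers, and at ZT21 41.6, 87.9 and 47.6 CPM in LPS livers and 102, 91.4 and 112 CPM in NC livers. The LPS values lay below all NC values at ZT5 and ZT21, and the groups overlapped at the other times. The mean was 75.9 ± 20.9 CPM in LPS livers and 97.1 ± 20.5 CPM in NC livers (SD, n = 18 each), a log2 change of -0.35 ± 0.09 with an adjusted p of 0.0192. Slco2a1 passed in each of the 36 fits that left out 1 library, with a change between -0.41 and -0.30. Without the 4 libraries, whose values of 41.6 to 55.3 CPM were below every NC library, the change was -0.18, with an adjusted p of 0.0811.

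**Figure D3:**
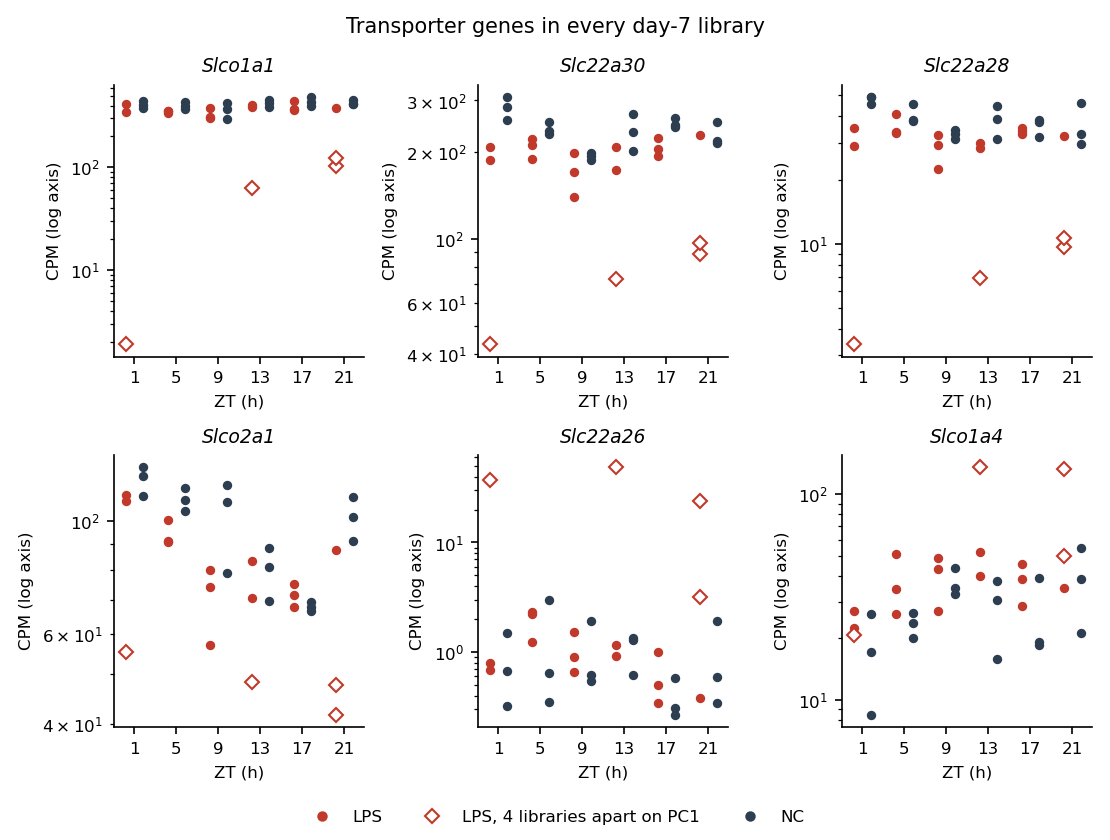
CPM of 6 transporter genes in each of the 36 day-7 libraries on log axes, with LPS left of NC at each ZT. Open diamonds mark the 4 LPS libraries that stood apart on the first principal component. In them Slco1a1, Slc22a30, Slc22a28 and Slco2a1 were below every NC library, Slc22a26 was above every NC library, and Slco1a4 was high in 2.

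Across the 23 genes, values in those 4 libraries lay below all 18 NC libraries for 4 genes (Slco1a1, Slc22a28, Slc22a30 and Slco2a1), above all of them for 1 (Slc22a26), and overlapped them for the other 18. This is a description of libraries singled out on all genes, with no test. The share of all genes that separated in this way was not determined, so the counts do not set these genes apart. Summed levels of genes that differ between the sexes in mouse liver stood apart in the same libraries. The 14 male-predominant genes summed to 1281 to 7537 CPM in the 4 libraries and to 9467 to 21900 CPM in the other LPS libraries, against 16379 to 28581 CPM in NC livers. The 18 female-predominant genes summed to 578 to 1707 CPM in the 4 libraries and to 120 to 208 CPM in the other LPS libraries, against 99.4 to 273 CPM in NC livers. In the averaged comparison, 2 of 14 male-predominant genes passed, both lower (Mup21 by -1.46 ± 0.33 and Serpina1e by -1.01 ± 0.29 on the log2 scale). Of 17 female-predominant genes tested 6 passed, all higher, among them the cytochrome P450 genes Cyp2b9 (3.65 ± 0.57) and Cyp17a1 (2.01 ± 0.45). With the 4 left out, 4 of 14 male-predominant genes passed, all lower, and 1 of 15 female-predominant genes tested, Cyp2b9, at 2.04 ± 0.39. Their part in the transporter changes was not tested.

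Slco1b2, an abundant uptake transporter, did not pass in the averaged comparison. At ZT1 Slco1b2 had 552, 397 and 558 CPM in LPS livers and 551, 661 and 637 CPM in NC livers, and at ZT5 638, 689 and 623 CPM in LPS livers and 519, 584 and 540.4 CPM in NC livers. At ZT9 Slco1b2 had 727, 576 and 568 CPM in LPS livers and 402, 499.7 and 794 CPM in NC livers, and at ZT13 684, 384 and 597 CPM in LPS livers and 849.7, 943 and 850.1 CPM in NC livers. At ZT17 Slco1b2 had 762, 821 and 816 CPM in LPS livers and 641, 710.2 and 738 CPM in NC livers, and at ZT21 397, 565 and 512 CPM in LPS livers and 578, 613 and 579 CPM in NC livers. Slco1b2 was lower in all 3 LPS than in all 3 NC libraries at ZT13 and ZT21 and higher in all 3 LPS libraries at ZT5 and ZT17. Averaged over time its log2 change was -0.10 ± 0.08, with an adjusted p of 0.405. For 13 further genes tested the averaged log2 changes ranged from -0.20 (Slc22a15) to 0.35 (Slc22a29), with adjusted p-values of at least 0.1005 (Slc22a3).

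Of 21 other hepatic transporters tested 3 passed in the averaged comparison. Slc51b, a basolateral bile acid exporter subunit, was higher by 1.23 ± 0.34 on the log2 scale, the nucleoside transporter Slc29a1 was higher by 0.19 ± 0.06, and the phosphate and urate transporter gene Slc17a3 was lower, by -0.50 ± 0.08. Of 22 regulators of transporter genes 3 passed. Nfe2l2, the oxidative stress regulator, was higher by 0.39 ± 0.08 and Cux2, a female-predominant repressor, by 1.69 ± 0.49, while the glucocorticoid receptor gene Nr3c1 was lower, by -0.25 ± 0.06. With the 4 left out, 1 of the 21 transporters passed, Slc17a3 (-0.39 ± 0.07), and 1 of the 22 regulators, Nfe2l2 (0.30 ± 0.07).

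Markers of other liver cells passed in the averaged comparison too. Of 14 endothelial markers 6 passed, all higher, and their sum ranged from 240 to 451 CPM in LPS livers and from 195 to 344 CPM in NC livers. Of 10 neutrophil markers tested 7 passed, all higher, with a sum of 1.80 to 148 CPM in LPS livers and 0.467 to 6.93 CPM in NC livers, and Ly6g had a median of 0. Kupffer cell and macrophage markers passed for 2 of 16, T, NK and B cell markers for 4 of 14 and cholangiocyte markers for 1 of 10, all higher. Of 14 stellate cell and fibroblast markers edgeR's quasi-likelihood test called 0, with 6 at an unadjusted p below 0.05. The summed stellate cell and fibroblast markers ranged from 294 to 1030.0 CPM in LPS livers and from 279 to 610 CPM in NC livers. Acute-phase genes passed for 6 of 24, all higher, and their sum reached 220346 CPM in LPS ZT1 replicate 2. It was 11784 to 26119 CPM in the other 17 LPS libraries and 16158 to 23610 CPM in NC livers. Their part in the transporter changes was not tested.

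At single times of day, few transporter genes separated the arms. With edgeR's quasi-likelihood test none of the 21 passed at ZT1, ZT5, ZT9, ZT13 or ZT17, where 0.357%, 0.0121%, 0.453%, 3.18% and 0% of all genes passed. At an unadjusted p below 0.05 there were 3, 2, 4, 7 and 1 at these times. The share of all genes at that unadjusted p was not determined, so these counts do not set the transporter genes apart. DESeq2 called 3 genes at ZT13 (Slc22a26, Slco1a4 and Slco1b2) against 7.66% of all genes, and 0 at the other 4 times, against 1.9%, 0.341%, 1.93% and 0.341%. Slco1b2 at ZT13 came nearest, with 684, 384 and 597 CPM in LPS livers, against 849.7, 943 and 850.1 CPM in NC livers. Its groups did not overlap, the log2 change was -0.66 ± 0.19 and the adjusted p was 0.0506. Without the 4 libraries that stood apart, Slco2a1 passed at ZT9, at -0.53 with an adjusted p of 0.0207, and Slc22a18 at ZT13, at 0.40 with an adjusted p of 0.0356, against 2.26% of all genes at either time.

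At ZT21, 2 of the 21 genes passed, against 8.9% of all genes, both lower with LPS, against 3.38% of all genes lower. Slco2b1 had 132, 138 and 129 CPM in LPS livers, against 169, 183 and 178 CPM in NC livers. The 3 LPS values lay within a narrow range below the 3 NC values, and the means were 133 ± 4.97 CPM in LPS livers and 176 ± 7.34 CPM in NC livers (SD, n = 3 each). The log2 change was -0.40 ± 0.09, with an adjusted p of 0.0105. Clock genes were read at 18.2, 20.8 and 19.6 h in these LPS livers and at 20.7, 21.5 and 22.6 h in NC livers. In the NC livers of ZT17, Slco2b1 had 136 ± 8.29 CPM. The part of clock time in this result was not tested. Slco2a1 had 41.6, 87.9 and 47.6 CPM in LPS livers, against 102, 91.4 and 112 CPM in NC livers. Its low LPS values were those of replicates 1 and 3, and replicate 2 lay just below the lowest NC library. The log2 change was -0.78 ± 0.23, with an adjusted p of 0.0306. With 1 library left out at a time the change lay between -0.43 and -0.37, and Slco2b1 passed in 33 of 36 fits, the exceptions being those without NC ZT21 replicate 2, LPS ZT21 replicate 1 or LPS ZT21 replicate 3. Leaving out each library in turn gave a change between -1.17 and -0.58, and Slco2a1 passed in 31 of 36 fits, the exceptions being those without NC ZT21 replicate 1, NC ZT21 replicate 2, NC ZT21 replicate 3, LPS ZT21 replicate 1 or LPS ZT21 replicate 3. In a fit of the 6 libraries of ZT21 alone neither passed, with -0.40 and an adjusted p of 0.136 for Slco2b1 and -0.78 and an adjusted p of 0.187 for Slco2a1. Without the libraries that stood apart a single LPS library was left at this time, and neither passed, against 0.0115% of all genes, at -0.35 for Slco2b1 and -0.21 for Slco2a1. Of 15 hepatocyte markers 4 passed at ZT21, all lower, and their part in these results was not tested. At ZT21, 4 of 21 other hepatic transporters passed, of which the drug efflux pump Abcb1a (2.11 ± 0.49) and Slc51b (2.82 ± 0.84) were higher and Slc29a1 (-0.63 ± 0.14) and Slc17a3 (-0.66 ± 0.19) were lower. With the libraries that stood apart left out, edgeR's quasi-likelihood test called 0 hepatocyte markers and 0 other hepatic transporters at ZT21, with 4 and 2 at an unadjusted p below 0.05.

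The test of whether the LPS effect varied among the 6 times called 0 of the 21 genes, against 1.7% of all genes. At an unadjusted p below 0.05 there were 6, and the share of all genes at that unadjusted p was not determined. DESeq2 called 4 (Slc22a7, Slc22a18, Slco1b2 and Slco2b1), against 12.2% of all genes. Slc22a7, named here after its values were seen, had 8.18 to 62.2 CPM in LPS livers and 6.06 to 71.6 CPM in NC livers, and its low values were LPS ZT1 replicate 2, LPS ZT13 replicate 2 and LPS ZT21 replicates 1 and 3, at 13.9, 17.5, 8.18 and 15.8 CPM, and NC ZT9 replicates 1 and 2, at 8.79 and 6.06 CPM.

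A 24 h rhythm was seen for 5 transporter genes in NC livers. With a 24 h cosine and sine term in each arm, 1 of 21 passed in LPS livers, against 16% of all genes, and 5 of 21 in NC livers, against 22.5% of all genes. The difference in rhythm between the arms called 0 of 21, against 0.169% of all genes, with 1 at an unadjusted p below 0.05 and 0 by DESeq2, against 2.14% of all genes. A rhythm that passed in 1 arm and not in the other is therefore not shown to differ. When the 4 apart were omitted, 3 genes passed in LPS livers (Slc22a15, Slco2a1 and Slco2b1) and 6 in NC livers, Slco1b2 in addition to the 5, against 13.5% and 30.4% of all genes.

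Slc22a15, an orphan member of the family, passed in both arms. Its group means ran from 6.45 ± 0.379 CPM at ZT13 to 15.8 ± 1.80 CPM at ZT5 in LPS livers and from 7.00 ± 1.74 CPM at ZT13 to 15.8 ± 1.99 CPM at ZT5 in NC livers (SD, n = 3 each). The fitted peak was at 4.28 h in both arms, 2.09-fold above the trough in LPS livers and 2.24-fold in NC livers, with adjusted p-values of 0.00184 and 0.00089. The lowest and highest times of day were the same in both arms. At ZT9 and ZT21 its LPS values lay below all NC values without passing edgeR's quasi-likelihood test (adjusted p of 0.264 and 0.0674), and DESeq2 called it at ZT21.

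Slco2b1 had the smallest adjusted p of the 21 genes in NC livers. Its LPS group means ranged from 128 ± 13.2 CPM at ZT9 to 164 ± 10.2 CPM at ZT1. Its NC group means ranged from 118 ± 11.3 CPM at ZT13 to 176 ± 7.34 CPM at ZT21. The fitted peak was 1.17-fold above the trough in LPS livers, with an adjusted p of 0.159, and 1.45-fold above it in NC livers, at 0.19 h, with an adjusted p of 0.000141. The exons of Slco2b1 overlap those of Gm15635 and Gm34280 on the opposite strand, and the sources used do not state how strand was counted.

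Slc22a5, the carnitine transporter, peaked in the other part of the day. Its group means ranged from 12.7 ± 1.18 CPM at ZT1 to 23 ± 3.69 CPM at ZT17 in LPS livers and from 11.2 ± 1.13 CPM at ZT21 to 28.2 ± 13.7 CPM at ZT13 in NC livers (SD, n = 3 each). The fitted peaks were at 13.9 h in LPS livers and 12.7 h in NC livers, with folds of 1.69 and 2.39 and adjusted p-values of 0.0748 and 0.00116. The NC value at ZT13 varied widely, with 15.2, 42.6 and 26.8 CPM. Slc22a5 and its neighbour Slc22a21 share 6.94% and 5.66% of their 150-base windows with each other.

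Slco2a1 peaked in the early light phase. The fitted peak was at 4.07 h in LPS livers and 3.20 h in NC livers, with folds of 1.41 and 1.67 and adjusted p-values of 0.14 and 0.0169. Slc22a3 had a fitted fold of 1.06 in LPS livers, with an adjusted p of 0.971, and of 1.82 in NC livers, with an adjusted p of 0.0321. In NC livers it was lowest at ZT9, at 1.58 ± 0.31 CPM, and highest at ZT21, at 3.36 ± 0.781 CPM. Its exons overlap those of the highly expressed plasminogen gene Plg on the opposite strand over 420 bases, so its low counts may hold reads of Plg.

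**Figure D4:**
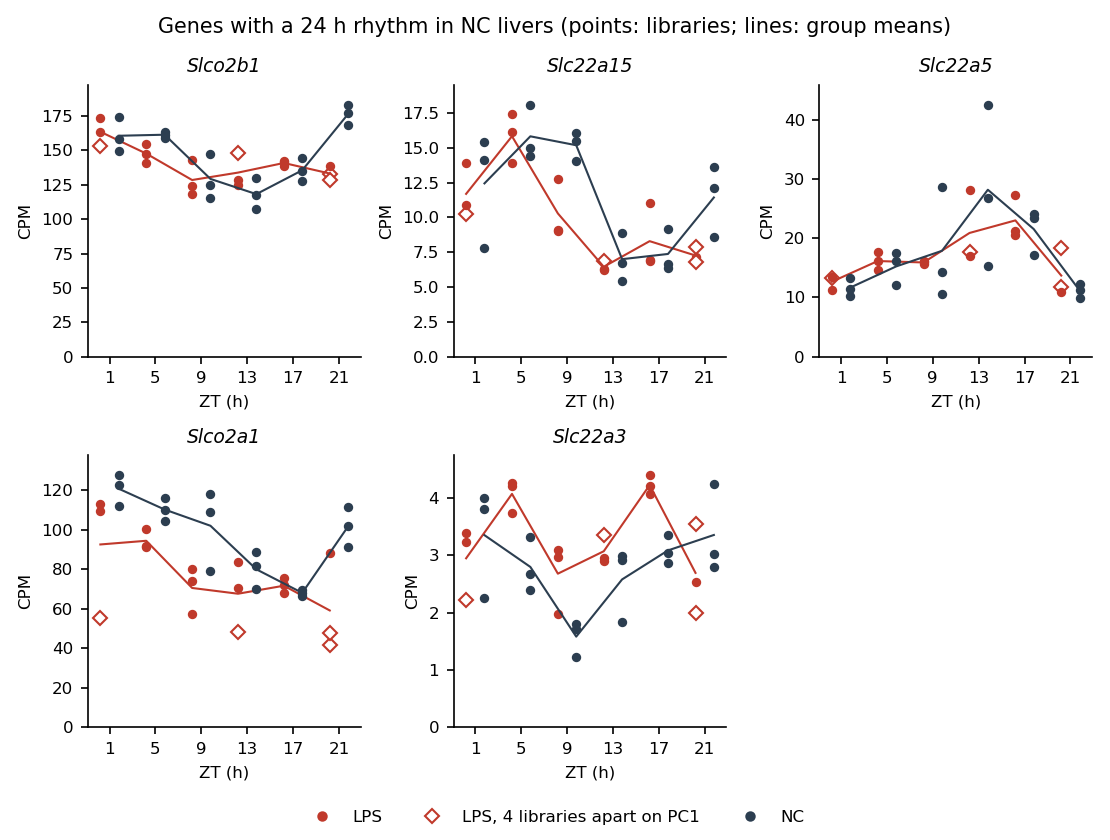
CPM of the 5 genes with a 24 h rhythm in NC livers, by ZT, with LPS left of NC. Points are libraries and lines join group means, and open diamonds mark the 4 LPS libraries that stood apart. The mean of Slc22a15 is lowest at ZT13 and highest at ZT5 in both arms, and its libraries do not overlap at ZT9 and ZT21, nor do those of Slco2b1 at ZT21.

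Clock factors bind E-box and D-box motifs, and promoters were therefore searched for CACGTG (E-box) and for TTACGTAA, TTATGTAA and TTACATAA (D-box) on both strands, from 250 bases before to 50 bases after each start. RefSeq (GRCm38.p6) gave 22 promoters for 19 of the 23 genes. The E-box was found in those of Slc22a4, beginning 228 bases before the start, and of Slco1c1, beginning at base 20 after it, and in 7.15% of 32851 promoters of all genes. A D-box was found in the promoter of Slc22a26 (TTATGTAA, from base 9), and in 1.06% of all promoters. Of these genes, Slc22a4 and Slc22a26 had no rhythm that passed in NC livers, and Slco1c1 was below the filter on counts and not tested. Of 22 regulators of transporter genes, 4 had a rhythm in LPS livers and 10 in NC livers, and of 19 core clock genes 18 did in each arm. With the 4 left out these were 5 and 11 regulators, and again 18 clock genes in each arm.

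Over the days of LPS at ZT21, 1 transporter gene passed against NC livers on each of days 3, 5 and 7 in the fit of the ZT21 libraries, and none passed on days 9 and 11. All 5 comparisons share the same 3 NC libraries. On day 3, 1 of 21 genes passed, Slco2b1, against 20.5% of all genes, and it was lower, as were 10.3% of all genes. On day 5, 1 passed, Slc22a5, against 11.6% of all genes, and it was lower, as were 5.68% of all genes. On day 7, 1 passed in the fit of the ZT21 libraries, Slco2a1, at -0.78 ± 0.19 with an adjusted p of 0.021, against 9.42% of all genes and 3.71% lower, and DESeq2 called 4 (Slc22a26, Slc22a30, Slco2a1 and Slco2b1), against 14.2% of all genes. Over fits that each left out 1 library the change was between -1.18 and -0.58, and Slco2a1 passed in 14 of 18 fits, the exceptions being those without NC ZT21 replicate 2, NC ZT21 replicate 3, LPS ZT21 replicate 1 or LPS ZT21 replicate 3. On days 9 and 11 edgeR's quasi-likelihood test called 0, against 0.429% and 0.261% of all genes. There were 4 and 1 genes at an unadjusted p below 0.05, a threshold at which the share of all genes was not determined. DESeq2 called 0 on both days, against 1.86% and 0.958% of all genes.

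Slco2b1 was low on 4 of the 5 LPS days, of which day 3 passed in the fit of the ZT21 libraries. Day 7 missed the threshold there, with an adjusted p of 0.055, and passed by DESeq2, with the replicate block and, as given above, in the fit of all day 7 libraries. Slco2b1 had 104, 124 and 144 CPM on day 3 of LPS, 179.5, 189 and 184 CPM on day 5, 132, 138 and 129 CPM on day 7, 119.8, 121 and 162 CPM on day 9 and 138, 164 and 146 CPM on day 11, against 169, 183 and 178 CPM in NC livers. The values of days 3, 7, 9 and 11 lay below all 3 NC values, and those of day 5 overlapped them. On day 3 the log2 change was -0.52 ± 0.13, with an adjusted p of 0.0091. With 1 library left out at a time the change lay between -0.64 and -0.40, and Slco2b1 passed in 17 of 18 fits, the exception being that without LPS day 3 replicate 1. The clock genes of the day 3 livers were read at a time between those of NC livers of ZT5, at 4.3 to 5.1 h, and of ZT9, at 6.8 h and later, with a slight overlap with ZT9. Against the NC livers of ZT5, 1 of 21 genes passed, again Slco2b1, against 7.31% of all genes and 3.38% lower. The comparison was of 104, 124 and 144 CPM in LPS livers of day 3 with 159, 161 and 164 CPM in NC livers, without overlap, a log2 change of -0.38 ± 0.11 and an adjusted p of 0.0258. Leaving out each library in turn gave a change between -0.51 and -0.27, and Slco2b1 passed in 7 of 12 fits, the exceptions being those without NC ZT5 replicate 1, NC ZT5 replicate 2, NC ZT5 replicate 3, LPS day 3 replicate 1 or LPS day 3 replicate 2. In the NC livers of ZT9, Slco2b1 had 115, 125 and 147 CPM, a range that overlapped that of day 3, and this comparison was not tested.

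Slc22a5 had its lowest mean at ZT21 on day 5. Slc22a5 had 8.03, 8.89 and 8.85 CPM on day 3 of LPS, 6.48, 6.53 and 8.75 CPM on day 5, 11.7, 10.9 and 18.4 CPM on day 7, 11.8, 10.5 and 13.7 CPM on day 9 and 12.9, 9.36 and 11.6 CPM on day 11, against 9.97, 11.3 and 12.2 CPM in NC livers. The day 3 and day 5 values lay below all NC values. The log2 change on day 5 was -0.62 ± 0.19, with an adjusted p of 0.0423. Over fits that each left out 1 library the change was between -0.78 and -0.55, and Slc22a5 passed in 9 of 18 fits, the exceptions being those without NC ZT21 replicate 1, NC ZT21 replicate 2, NC ZT21 replicate 3, LPS day 3 replicate 1, LPS day 3 replicate 2, LPS day 5 replicate 1, LPS day 5 replicate 2, LPS day 9 replicate 1 or LPS day 11 replicate 3. The clock genes of 2 of the 3 day 5 livers were read at 1.1 and 1.2 h and those of the other at 4.5 h, and against NC livers of ZT1 the log2 change was -0.68 ± 0.28, with an adjusted p of 0.179. In that comparison 0 of 21 genes passed edgeR's quasi-likelihood test, against 3.12% of all genes. At an unadjusted p below 0.05 there were 6, and the share of all genes at that unadjusted p was not determined. DESeq2 called 1, Slco1a4, against 5.96% of all genes.

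The levels differed among the 5 LPS days for 6 of the 21 genes, against 27.4% of all genes. These were Slco1a4, Slc22a15, Slc22a5, Slco2b1, Slco2a1 and Slc22a30, with adjusted p-values of 0.0078, 0.00791, 0.00881, 0.0158, 0.0208 and 0.0228. Clock genes were read at 1.1 to 6.9 h on days 3 and 5 and at 18.2 to 23.6 h on the later days. The part of clock time in these differences was not tested. Slco1a4 had 66.6, 61.5 and 47.9 CPM on day 3 of LPS, 58.9, 54.3 and 40.3 CPM on day 5, 49.9, 35.1 and 133 CPM on day 7, 15.2, 13.1 and 26.4 CPM on day 9 and 15.3, 15.4 and 17.3 CPM on day 11, against 21.1, 54.8 and 39.0 CPM in NC livers. Slco1a4 was thus higher in each library of days 3, 5 and 7 than in each library of days 9 and 11. Against NC livers its log2 changes were -1.07 ± 0.45 on day 9 and -1.25 ± 0.45 on day 11, neither of which passed.

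Slc22a30 was low on days 3 and 5. Slc22a30 had 160.4, 166 and 134 CPM on day 3 of LPS, 130.0, 129.8 and 184 CPM on day 5, 88.4, 228 and 96.9 CPM on day 7, 261, 262 and 210.0 CPM on day 9 and 263, 266 and 272 CPM on day 11, against 254, 215 and 218 CPM in NC livers. All 3 libraries of days 3 and 5 lay below the lowest NC library, and those of day 11 lay above the highest. Without the libraries that stood apart, Slc22a30 passed on day 3, at -0.57, and on day 5, at -0.63, with adjusted p-values of 0.00825 and 0.00832, against 21.8% and 13.9% of all genes. With them, its log2 changes were -0.58 ± 0.26 and -0.63 ± 0.26, with adjusted p-values of 0.133 and 0.134. The libraries left out of this fit were day 7 replicates 1 and 3. The day 3, day 5 and NC libraries compared were therefore the same in both fits. Libraries of days 3 and 5 were not part of the principal component analysis, which covered day 7 only.

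Slc22a15 had 9.85, 10.5 and 8.80 CPM on day 3 of LPS, 15.9, 16.0 and 16.6 CPM on day 5, 7.88, 7.14 and 6.79 CPM on day 7, 6.12, 5.11 and 9.44 CPM on day 9 and 5.82, 12.5 and 6.21 CPM on day 11, against 8.59, 12.1 and 13.6 CPM in NC livers. Slc22a15 was highest on day 5, without overlap with any other group at ZT21. The clock genes of that day were read at 1.1 to 4.5 h, and the fitted rhythm of Slc22a15 in NC livers peaked at 4.28 h. Those of day 3, when Slc22a15 was lower than on day 5, were read at 6.1 to 6.9 h. In the NC livers of ZT5 and ZT9, Slc22a15 had 15.8 ± 1.99 and 15.2 ± 1.01 CPM. The part of clock time in its levels was not tested. Slco2a1 had 88.5, 95.04 and 94.0 CPM on day 3 of LPS, 101, 89.0 and 106 CPM on day 5, 41.6, 87.9 and 47.6 CPM on day 7, 98.3, 100 and 113 CPM on day 9 and 103, 100.5 and 111 CPM on day 11, against 102, 91.4 and 112 CPM in NC livers. For Slco2a1 the low values were those of day 7 replicates 1 and 3, and its difference among days did not pass without them. The other 5 of the 6 genes did, against 17.6% of all genes.

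Slco1a1 and Slc22a28, named here after their values were seen, were not among the 6 genes. DESeq2 called Slc22a28, and not Slco1a1, for a difference among LPS days, against 34.9% of all genes. Slco1a1 had 255, 277 and 67.3 CPM on day 3 of LPS, 84.5, 95.7 and 412 CPM on day 5, 102, 383 and 123 CPM on day 7, 375, 376 and 394 CPM on day 9 and 402, 376 and 461 CPM on day 11, against 416, 454 and 417 CPM in NC livers. Slc22a28 had 22.6, 25.5 and 13.1 CPM on day 3 of LPS, 13.7, 13.3 and 34.2 CPM on day 5, 9.68, 32.2 and 10.7 CPM on day 7, 37.9, 40.0 and 33.5 CPM on day 9 and 48.2, 42.3 and 52.8 CPM on day 11, against 46.3, 29.7 and 32.9 CPM in NC livers. In both genes day 3 replicate 3 and day 5 replicates 1 and 2 were low, and the values of days 9 and 11 lay near or above those of NC livers. In those 3 libraries the male-predominant genes summed to 5047, 4110 and 3856 CPM and the female-predominant genes to 284, 438 and 463 CPM. In NC livers at ZT21 the male-predominant genes summed to 20762 to 24767 CPM and the female-predominant genes to 140 to 169 CPM.

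**Figure D5:**
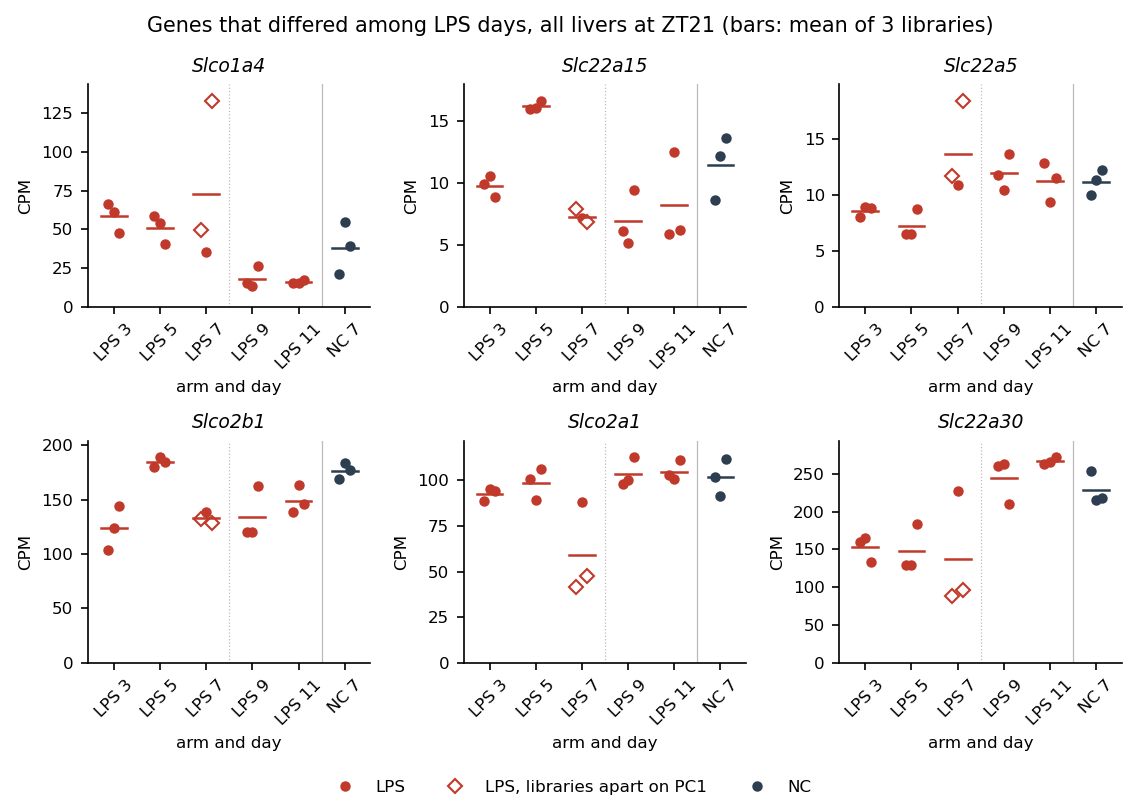
CPM at ZT21 of the 6 genes that differed among LPS days, for LPS days 3, 5, 7, 9 and 11 and, at the right, NC livers of day 7. Bars are means of 3 libraries, open diamonds mark libraries that stood apart, and the dotted line marks the end of LPS. Slco1a4 is low and Slc22a30 is high on days 9 and 11.

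Of the other hepatic transporters, 12 of 21 passed on day 3, 5 higher and 7 lower, led by Slc47a1 (-0.93 ± 0.15), an efflux transporter of organic cations, Slc28a2 (1.63 ± 0.29) and Slc29a1 (-0.70 ± 0.13), which carry nucleosides, and Abcg2 (-0.66 ± 0.13), a drug efflux pump. Of 22 regulators 6 passed on day 3, of which the bile acid responsive repressor Nr0b2 was higher (3.15 ± 0.49) and Cebpb (-1.65 ± 0.20), Nr1i2 (-0.81 ± 0.16), Cebpa and Rxra were lower. Against the NC livers of ZT5 2 of the 21 other transporters passed, Slc51b (2.77 ± 0.83) and Abcc2 (0.45 ± 0.12), both higher. Of the 22 regulators edgeR's quasi-likelihood test called 0 there, with 4 at an unadjusted p below 0.05 and 1 by DESeq2. Of 19 core clock genes 12 passed on day 3 against NC livers of ZT21, so that part of these changes was measured across a difference in clock time. Among LPS days, 16 of 21 other transporters differed, and 14 with the libraries that stood apart left out. The difference in calls between the lists was not tested. Markers of immune cells were also higher on day 3, with 12 of 16 Kupffer cell and macrophage markers, 11 of 14 T, NK and B cell markers and 10 of 11 neutrophil markers tested passing. Of 15 hepatocyte markers 5 passed, of which Arg1, Ass1, Tat and Ttr were lower and Hpx was higher, by 0.66 ± 0.12 on the log2 scale. Their part in the transporter changes was not tested.

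The remaining transporter genes were not called by edgeR's quasi-likelihood test in any comparison between LPS and NC livers with all libraries. DESeq2 called Slc22a18 for variation of the effect among times, and their lowest, median and highest values on day 7 lay in overlapping ranges. Slc22a18 had 68.3, 109 and 138 CPM in LPS livers and 87.5, 105 and 127 CPM in NC livers. Slc22a23 had 66.3, 81.3 and 98.0 CPM in LPS livers and 67.0, 77.2 and 91.4 CPM in NC livers. Slc22a4, the ergothioneine transporter, had 0.899, 1.97 and 4.16 CPM in LPS livers and 1.195, 2.23 and 3.51 CPM in NC livers. In the LPS libraries that stood apart, Slc22a18 had 68.3 to 105 CPM. Slc22a17 had 1.24, 2.09 and 3.82 CPM in LPS livers and 1.382, 1.98 and 2.92 CPM in NC livers. Slco3a1, a widely expressed organic anion transporter, had 1.92, 3.07 and 4.06 CPM in LPS livers and 2.12, 2.63 and 3.56 CPM in NC livers. Slc22a29, of the chromosome 19 cluster, had 0.408, 1.12 and 4.22 CPM in LPS livers and 0, 1.14 and 1.57 CPM in NC livers. The highest Slc22a29 value, like the highest of Slc22a26, was in a library that stood apart. Slc22a21 had 0.278, 0.957 and 1.72 CPM in LPS livers and 0.406, 0.896 and 1.34 CPM in NC livers. Slco4a1 had 0.0617, 0.298 and 0.845 CPM in LPS livers and 0.0712, 0.301 and 0.529 CPM in NC livers. Slc22a13 and Slco1c1 reached at most 0.233 and 0.361 CPM in LPS livers and 0.218 and 0.277 CPM in NC livers, and a difference between arms was not detectable at these levels.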

How the data were processed

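The authors' deposited table holds unnormalized read counts per gene for 48 libraries. Per the labels' protocols, libraries were strand-specific and read as 150 bp pairs. Per the submitters' processing notes, build GRCm38, STAR 2.5.2b, StringTie 2.2.1, DESeq2 1.38.1, FastQC 0.11.5 and SAMtools 1.3.1 were used, and how strand was counted is not stated.

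Counts were scaled by TMM, filtered with filterByExpr and tested with edgeR 4.0.16 (robust quasi-likelihood test, limma 3.58.1, R 4.3.3), with Benjamini-Hochberg adjustment over all genes tested and a threshold of 0.05. The share of all genes with an unadjusted p below 0.05 was not determined in any comparison. Of the 23 genes 21 passed the filter, Slc22a13 and Slco1c1 did not. The 36 day-7 libraries were fitted with 1 term per arm and time, and again with 24 h cosine and sine terms per arm. The 18 ZT21 libraries were fitted by day, and all 48 for comparisons of day 3 with NC ZT5 and day 5 with NC ZT1. Clock times were read from core clock genes. The code was tested on simulated data. CPM divided by exon length gave levels per kilobase. Figures used Python 3.11.15 with matplotlib 3.10.9, and sequences were aligned with Biopython 1.88.

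Alternatives were RLE scaling, no filter, DESeq2 1.42.0, a replicate block, each library left out, and at each time only its 6 libraries. Leaving out the 4 libraries that stood apart was added after seeing the data. The genes and marker lists were chosen with earlier results of these data known. Values in every library are given for genes that passed the averaged, interaction or rhythm-difference test, for up to 3 genes each way in the other comparisons, and for the 4 highest per kilobase. The results of 1 member and of 1 gene of the regulator list are not reported here.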

Additional observations from a re-analysis of the deposited data

Results flagged for a closer look

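The levels of 6 transporter genes differed among the 5 LPS days at ZT21 by a test of that difference (edgeR's quasi-likelihood test over days 3, 5, 7, 9 and 11), 6 of 21 tested, against 27.4% of all genes. The adjusted p was 0.0078 for Slco1a4, which was higher in each library of days 3, 5 and 7 than in each of days 9 and 11. It was 0.00791 for Slc22a15 and 0.00881 for Slc22a5, whose day 5 means were the highest and the lowest of the 5 days. It was 0.0158 for Slco2b1, highest on day 5. It was 0.0208 for Slco2a1, low in day 7 replicates 1 and 3, and 0.0228 for Slc22a30. Without the 4 libraries that stood apart, 5 of these genes passed and Slco2a1 did not. Clock genes were read at 6.1 to 6.9 h on day 3 and 1.1 to 4.5 h on day 5. On days 7, 9 and 11 they were read at 18.2 to 23.6 h. The part of clock time in these differences was not tested.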

How the results depend on the processing

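Of 13 single-gene differences, 13 kept their call with RLE scaling and 13 with DESeq2, 12 with the replicate block and 8 without a filter on low counts. Without the 4 libraries that stood apart 6 of 12 did, 5 no longer passed, and the averaged change of Slc22a26 turned to -0.065. The number of genes called moved as follows. In the averaged comparison 4 became 1 without a filter and 2 without the 4 libraries. For the variation of the effect among times, 0 became 4 with DESeq2. At ZT9 0 became 1 without the 4 libraries. At ZT13 0 became 1 with RLE scaling, 3 with DESeq2 and 1 without the 4 libraries. At ZT21 2 became 0 without them and 0 with the 6 libraries of that time alone. For the rhythm in LPS livers 1 became 2 with DESeq2, against 20.5% of all genes, and 3 without the 4 libraries, against 13.5%. On day 3 1 became 2 without them. On day 5 1 became 0 without a filter, 2 with the block and 2 without the 4 libraries. On day 7 1 became 4 with DESeq2, 2 with the block and 0 without the 4 libraries. For day 3 against NC ZT5 1 became 0 without a filter, 3 with DESeq2 and 2 with the block. For day 5 against NC ZT1 0 became 1 with DESeq2 and 1 with the block. The share of all genes called moved under the same settings, for example to 3.57% without a filter and 2.99% without the 4 libraries in the averaged comparison, from 9.34%, and to 10.4% with DESeq2 for day 3 against NC ZT5, from 7.31%. The cause of these moves was not tested.

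With 1 library left out at a time, the number called lay between 1 and 5 in the averaged comparison and 0 and 2 for variation among times. It stayed at 0 at ZT1, ZT5 and ZT17 and lay between 0 and 1 at ZT9 and at ZT13, and 0 and 7 at ZT21. It lay between 1 and 2 for the LPS rhythm, 4 and 6 for the NC rhythm, and stayed at 0 for their difference. By day it lay between 0 and 2 on day 3, 0 and 4 on day 5, 0 and 9 on day 7, 0 and 1 on day 9 and at 0 on day 11. It lay between 5 and 10 among LPS days, 0 and 1 for day 3 against NC ZT5, and 0 and 4 for day 5 against NC ZT1. The share of all genes called in each of these fits was not determined, so these counts are not a result about the transporter genes alone. Where a group kept 1 library, that library was assumed to vary like the others.

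The replicate numbers were not treated as a pairing in the main fits. Of 30 correlations of same-numbered libraries between arms or days, from -0.17 to 0.30, 6 exceeded 0.1. Libraries with different numbers were not compared, so these values do not decide whether a pairing exists. With the replicate block 3 genes passed the averaged comparison, Slc22a26 no longer, at 1.93 with an adjusted p of 0.0518. Genes with few counts, such as Slc22a13 and Slco1c1, allow no statement at this depth.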
